A study of Mus musculus with 4 samples.

Results

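The 231 nuclei described here carry the authors' label Ad IIa in the thymic single-nucleus RNA library. They were taken as the rows of the deposited nucleus table with that label and library. They are 231 of the library's 365 labelled nuclei, of its 22600 barcodes and of the 1929 labelled nuclei of the study's pair of 4-month libraries. The library came from 6 pooled thymi of untreated wild-type C57/BL6 males aged 4 months on standard chow. Capsules freed of fat were digested with collagenase and DNase, and nuclei were taken from the layer that floats after spinning. Ad IIa was set beside the other labels of the same library, which share mice, digestion, layer and sequencing. These were Ad I (84 nuclei, the authors' Ad Ia with 35 and Ad Ib with 49), Ad IIb (16) and Ad IIc (34). The 22235 barcodes without a label, which carry RNA of thymocytes and other cells, served as the background of the library.

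Endothelial cells line all blood vessels, and the lining differs between arteries, capillaries and veins. In fat and muscle, capillary endothelium moves fatty acids from blood to tissue. Lipoprotein lipase, held on the capillary wall by Gpihbp1, frees fatty acids from lipoproteins, the receptor Cd36 takes them up, the carrier Fabp4 binds them inside the cell, and the nuclear receptor Pparg activates several of these genes in capillaries as well as in adipocytes.

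Endothelial identity genes with 1 RefSeq promoter, on all chromosomes but 1, were eligible for display. The promoters shown are those of the 3 with most RNA molecules in Ad IIa. They are windows of 300 bases, 250 before to 50 after a gene start, as RefSeq tables on GRCm38.p6 give them, read along the gene. Capitals mark AGGAAG or its reverse complement CTTCCT, a core string bound by ETS factors such as Erg and Fli1. Cyyr1 lies at chr16:85550324-85550623 (minus strand), Flt1 at chr5:147725962-147726261 (minus strand) and Adgrl4 at chr3:151437632-151437931 (plus strand). The RefSeq spans of Cyyr1 and Flt1 reach further upstream than the starts used for these windows, so both windows lie within the gene span.
Cyyr1: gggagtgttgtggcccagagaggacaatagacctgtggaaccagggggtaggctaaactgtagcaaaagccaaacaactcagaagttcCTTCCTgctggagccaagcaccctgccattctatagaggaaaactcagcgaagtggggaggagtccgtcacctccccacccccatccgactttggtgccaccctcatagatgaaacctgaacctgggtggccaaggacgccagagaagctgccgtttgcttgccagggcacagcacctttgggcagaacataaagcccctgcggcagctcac
Flt1: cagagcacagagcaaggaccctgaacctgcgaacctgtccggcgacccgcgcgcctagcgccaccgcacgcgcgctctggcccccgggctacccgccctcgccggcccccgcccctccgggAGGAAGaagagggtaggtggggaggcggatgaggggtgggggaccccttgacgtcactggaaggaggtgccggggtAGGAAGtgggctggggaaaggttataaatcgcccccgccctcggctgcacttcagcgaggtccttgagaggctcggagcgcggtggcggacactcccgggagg
Adgrl4: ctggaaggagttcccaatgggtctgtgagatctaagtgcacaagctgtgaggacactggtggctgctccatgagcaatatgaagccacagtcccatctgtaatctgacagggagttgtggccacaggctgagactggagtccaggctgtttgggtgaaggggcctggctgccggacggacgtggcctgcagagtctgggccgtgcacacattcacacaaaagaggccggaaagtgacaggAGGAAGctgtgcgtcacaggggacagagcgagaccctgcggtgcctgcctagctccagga
The string occurred 2 times in the Flt1 window and 1 time in each of the others. RefSeq windows were found for 13 of the 22 identity genes, with 17 promoters among them. AGGAAG was in 10 of the 17 (58.8%), on either strand, and in 35.4% of all 32851 promoter windows. The SOX string ACAAAG was in 3 of 17 (17.6%) against 18.7% of all windows. The forkhead string TGTTTAC was in 0 of 17 against 3.65%, and the direct repeat element of nuclear receptors such as Pparg in 0 of 17 and in 13 windows in all. A match is a run of letters and no binding site. RNA of the ETS genes themselves was present, with 990 molecules of Fli1 and 126 of Erg.

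RNA molecules were counted as unique molecular identifiers (UMIs). The Ad IIa nuclei held 460575 UMIs, of which 401448 were nuclear-encoded, with a median of 1696 UMIs per nucleus (434 to 6300). Ad I held 52241 nuclear-encoded UMIs, Ad IIb 27020, Ad IIc 54263 and the unlabelled barcodes 4603069. The unlabelled barcodes were shallow (medians of 308 UMIs and 97 nuclear-encoded UMIs), with a median of 69.3% mitochondrial UMIs against 13.3% in Ad IIa. Ribosomal protein RNA was at 47269.5 CPM in them and 23296 in Ad IIa, and its part in the ratios was not tested. Levels are UMIs per 1000000 nuclear-encoded UMIs of the group (CPM). Ratios are log2 values, Ad IIa over the other side, with 0.5 UMI added to each sum, and ranges beside them are 95% intervals. Each group is part of 1 library, so no value has a replicate check, no test was made, and intervals cover counting error only. The authors' labels came from clustering of the same RNA, so a difference between labels describes the label. Of the Ad IIa barcodes, 1 was also a barcode of the epigonadal fat library, and 147 barcodes in all were shared. The authors classed all 365 labelled nuclei as singlets, and they were left so.

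The sample labels call the material adipocytes, but genes that define adipocytes were at or near 0 in Ad IIa. Adipoq (adiponectin) had 4 UMIs in all 231 nuclei, Plin1 (a coat protein of lipid droplets) 4, Acvr1c 3, Retn (resistin) 3, Plin4 1, and Slc2a4 (the insulin-responsive glucose carrier) and Lep (leptin) 0. A count of 0 allows up to 7.47 CPM. Over a list of 17 adipocyte genes, 16 had at least 10 UMIs over both sides, 0 were at least 2-fold higher than in unlabelled barcodes and 13 at least 2-fold lower. Across all 13323 genes with that minimum, 16.5% were at least 2-fold higher and 28.8% at least 2-fold lower. The list's median was -2.66, against -0.20 for all genes tested (-2.43 and 0.02 with genes at 0 held at the limit of 3 counts). Of the genes past 2-fold, 36.5% were higher, and 46.9% where each nucleus had equal weight. Against unlabelled barcodes under 300 UMIs alone, 30.6% of 9103 genes were at least 2-fold higher and 21.8% lower. The most abundant members were Car3 (129 UMIs, 321 against 1049 CPM), Lipe (61, 152 against 152 CPM) and Cfd (58, 144 against 702 CPM). Of 12 brown and beige fat genes tested 7 were at least 2-fold lower and 0 higher, with 7 UMIs of Ucp1. Their median of -2.01 became 0.07 among barcodes with at least 1000 UMIs, so no direction is given for them. A gene at 0 in Ad IIa can count as lower through the added 0.5 UMI alone. The number of intervals that lie below 0 is therefore given beside several lists.

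Pparg (chromosome 6, 115360879 to 115490404, GRCm38) and Fabp4 (chromosome 3, 10204342 to 10208616), shared by adipocytes and capillaries, had UMIs in most of the 231 nuclei. Pparg was found in 193, Fabp4 in 228 and Flt1 in 207, so that nuclei with both Pparg and Flt1 (179) or both Fabp4 and Flt1 (204) largely follow from these numbers. After each barcode was thinned to 500 nuclear-encoded UMIs, Pparg was found in 60.4% of Ad IIa nuclei (median depth 1500) and 4.29% of unlabelled barcodes with fewer than 5 identity genes (842.5), and Fabp4 in 95.6% and 19.2%.

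Genes of endothelial identity ran through Ad IIa. The receptor Flt1 (chromosome 5, 147561604 to 147726438) had 1044 UMIs in 207 of 231 nuclei, a level of 2601 against 242 CPM in unlabelled barcodes, or a log2 ratio of 3.43 (3.30 to 3.55). The junction protein VE-cadherin, Cdh5 (chromosome 8, 104101613 to 104144504), had 323 UMIs in 158 nuclei, or 805 against 93.2 CPM (3.11, 2.90 to 3.32). Pecam1 (chromosome 11, 106654213 to 106715281), an adhesion molecule that many leukocytes also make, had a smaller ratio at 1.93 (1.76 to 2.10). All 22 members of the identity list were at least 2-fold higher, from 1.47 for Icam2 to 3.78 for the adhesion receptor Adgrl4, with a median of 3.27. Cyyr1 stood at 3019 against 224 CPM and Emcn (endomucin) at 894 against 71.7 CPM. The median nucleus had UMIs of 12 of the 22 genes (2 to 21), and 226 nuclei had at least 5.

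By vascular bed, Ad IIa carried capillary genes. Of 16 capillary genes 14 had at least 10 UMIs over both sides, and all 14 were at least 2-fold higher than in unlabelled barcodes (median 2.82). Cd36 had 2459 UMIs in 226 nuclei (6125 against 920.0 CPM). Btnl9 had 313 UMIs (779.7 against 75.4 CPM), Gpihbp1 182 (453 against 60.8 CPM), Timp4 159 (396 against 55.6 CPM) and Car4, a surface carbonic anhydrase, 135 (336 against 39.1 CPM). The homeobox factor Meox2 had 92 UMIs and its partner Tcf15 55. Plvap, a gene of fenestral diaphragms, had 1 UMI and Prx 2, too few to compare. Of 6 tested genes of sprouting tip cells, 3 were at least 2-fold higher (Dll4, Angpt2 and Nid2), and Esm1 was at 0.

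Some arterial genes were present in Ad IIa and others were at 0. Mecom had 873 UMIs (2175 against 184 CPM), the ligand Efnb2 155 (386 against 29.8 CPM), Sox17 43, Unc5b 31 and Sema3g 24, with ratios of 3.07 to 3.70. The connexins Gja5 and Gja4, the kinase Bmx, the vasoconstrictor Edn1, Hey2 and Gkn3 had 0 UMIs, and Fbln5 and Vegfc had 3 each. In all, 6 of 13 arterial genes tested were at least 2-fold higher and 4 at least 2-fold lower, the latter near the share over all genes, with 1 interval below 0. Among the latter, Gja5, Edn1 and Hey2 were at 0 in Ad IIa with a background below the limit of 7.47 CPM, so that their ratio has no size.

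Many venous, lymphatic, sinusoidal and barrier genes were at 0. In the venous list, Ackr1, Sele, Vcam1, Lrg1, Slco2a1, Bst1 and Madcam1 had 0 UMIs, Vwf and Selp 2 each, and Nr2f2, a factor of venous identity, 24 (59.8 against 16.7 CPM). Nrp2 (152 UMIs), Lifr (58) and Ephb4 (43) were present. Of 12 tested members 6 were at least 2-fold higher and 4 lower (3 intervals below 0), the latter near the share over all genes. The list's median of 0.11 became -0.06 with median-of-ratios scaling and -0.10 without Malat1, Gm42418 and AY036118 in the total, and 1.40 with genes at 0 held at their limit, so it has no size. Of 9 lymphatic genes 8 were at 0, Prox1 and Lyve1 among them, while Flt4 had 15 UMIs. Of 7 sinusoidal genes 5 were at 0, and Stab1 had 14. In the barrier list 7 of 12 were at 0, among them the carriers Mfsd2a and Slco1c1 of brain capillaries, whereas Tjp1 (360 UMIs), Cldn5 (57) and Abcb1a (38) were present. Counts against unlabelled barcodes are to be read beside the shares over all genes tested, 16.5% at least 2-fold higher and 28.8% lower. Of the members tested, 1 of 5 lymphatic, 1 of 4 sinusoidal and 3 of 7 barrier genes were at least 2-fold higher, and 4, 3 and 3 lower. The lymphatic and sinusoidal counts of higher genes are near the share over all genes. Only 1 interval in each of these lists lay below 0 (Itga9, Mrc1 and Lef1), and with genes at 0 held at their limit the medians of -1.69, -1.79 and -0.18 became 0.93, 0.75 and 1.64.

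**Figure D1:**
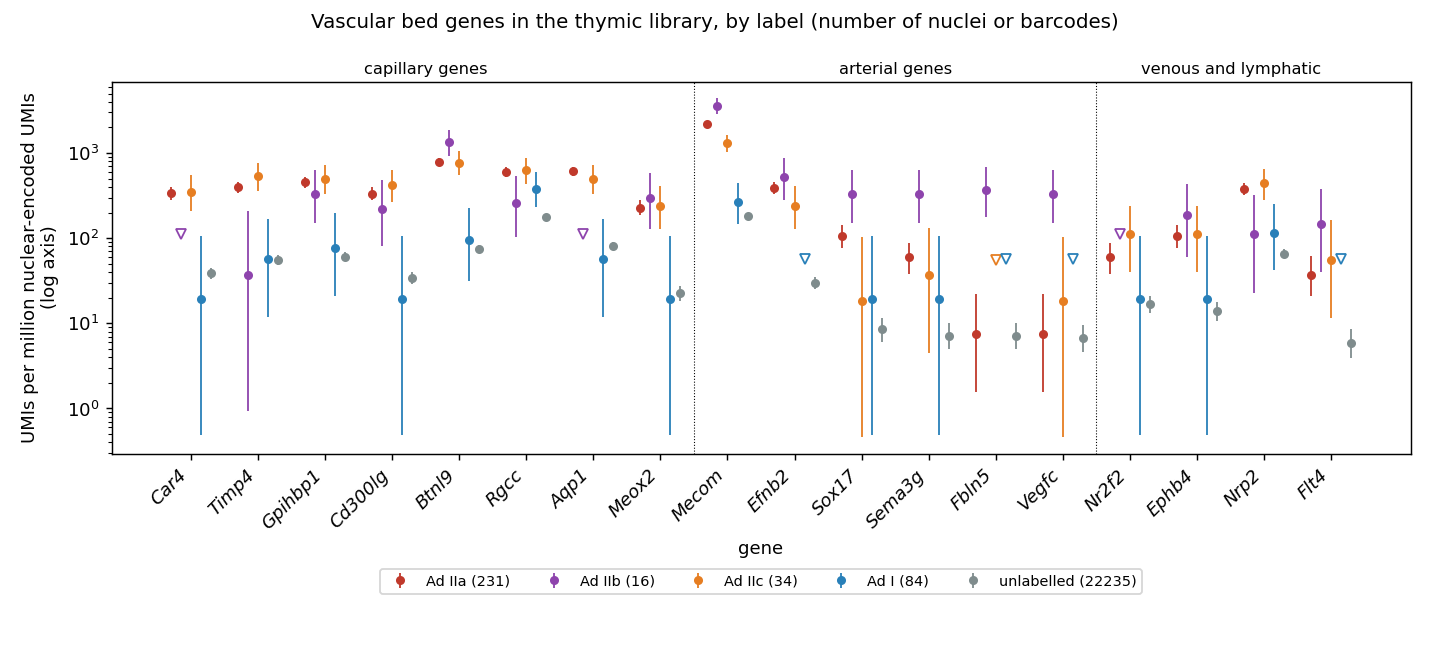
Level of vessel bed genes (log axis, CPM of nuclear-encoded UMIs) in the thymic labels and the unlabelled barcodes. Points are sums over all nuclei of a group with 95% Poisson intervals, and open triangles mark the limit of 3 counts where a group has 0 UMIs. Ad IIa has 336 CPM of Car4 and 7.47 of Vegfc, and Ad IIb has 0 UMIs of Car4 and 333 CPM of Vegfc.

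Several genes that carry fatty acids across the capillary were higher in Ad IIa, while the acyl-CoA synthetase Acsl1 and the carrier Slc27a1 were lower. Of 17 members tested, 10 were at least 2-fold higher than in unlabelled barcodes and 2 at least 2-fold lower (median 1.49). Fabp4 had 3557 UMIs in 228 nuclei (8860.4 against 3101 CPM, log2 1.51), but its ratio was 1.03 with equal weight per nucleus and 0.89, under 2-fold, over unlabelled barcodes under 300 UMIs. Pparg had 952 UMIs (2371 against 379.5 CPM), the lipoprotein receptor Scarb1 126 (314 against 40.2 CPM) and Fabp5 72. Lpl had 368 UMIs, with closer levels of 917 against 703 CPM (0.39, 0.22 to 0.54). Acsl1, which activates fatty acids inside cells, had 27 UMIs (67.3 against 270.3 CPM, log2 -1.98). The fatty acid carrier Slc27a1 had 0 against 59.5 CPM, at least 7.97-fold lower, and its relatives Slc27a3 and Slc27a4 had 1 and 6 UMIs.

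Caveolae are membrane pits that serve transport across the endothelium. Their coat genes Cav1 (593 UMIs, log2 2.98), Cavin2 (396, 2.56), Cavin1 (243, 1.63) and Cav2 (69, 2.63) were higher than in unlabelled barcodes, and 6 of 11 tested members were at least 2-fold higher and 1 lower (0 intervals below 0). Among solute and water carriers, 6 of 17 were at least 2-fold higher and 5 lower (2 intervals below 0), the latter near the share over all genes. The water channel Aqp1 had 245 UMIs (610.3 against 81.9 CPM), the aquaglyceroporin Aqp7 106, the efflux pump Abcg2 160 and the taurine carrier Slc6a6 148. The amino acid carriers Slc7a5 and Slc38a5 had 0, and the monocarboxylate carrier Slc16a1 was at 27.4 against 83.2 CPM.

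**Figure D2:**
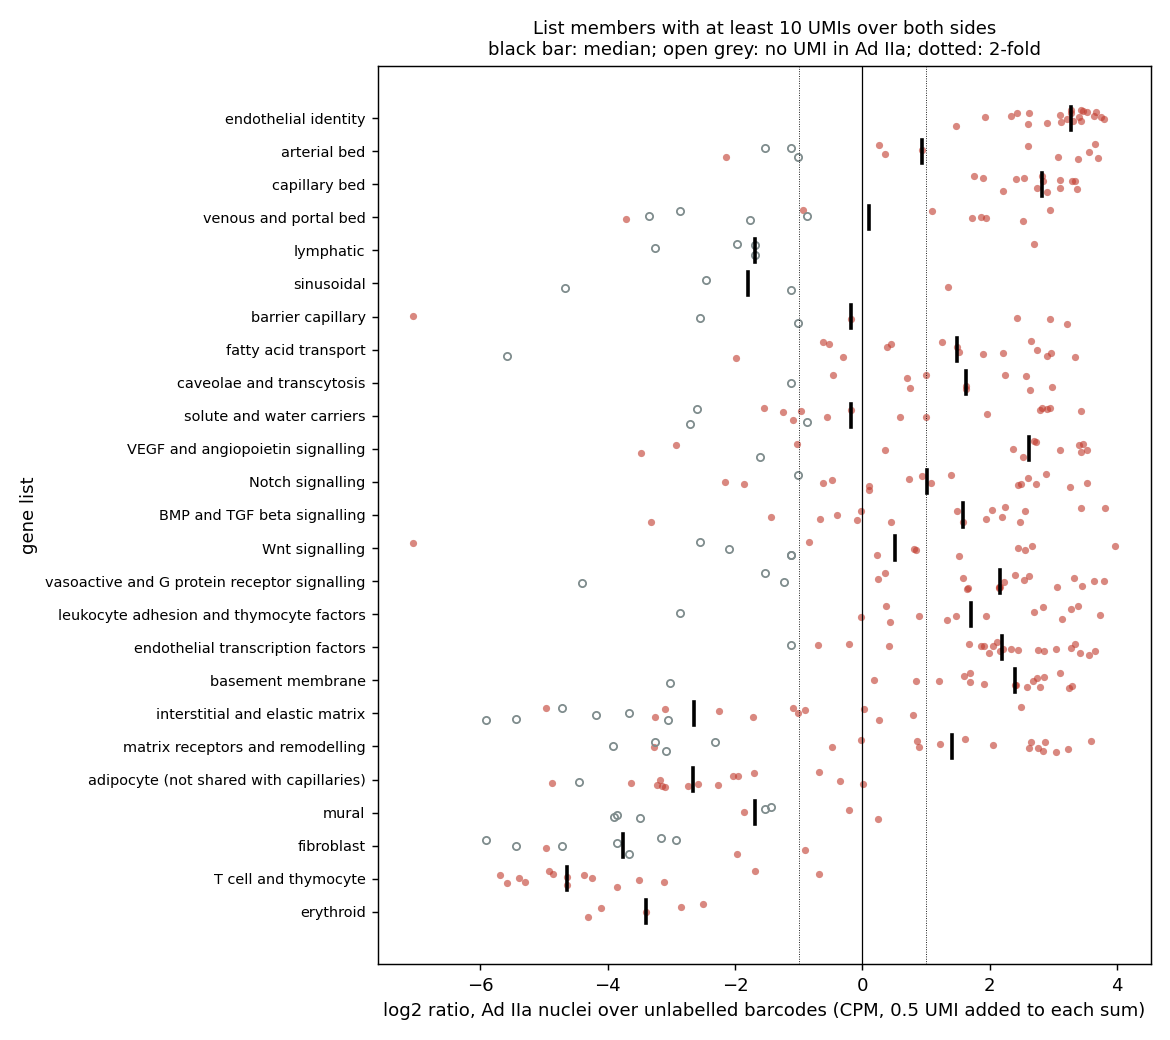
Log2 ratio of Ad IIa over unlabelled barcodes for list members with at least 10 UMIs over both sides. Filled points have UMIs in Ad IIa, open points have none (their position depends on the added 0.5 UMI), black bars are list medians and dotted lines mark 2-fold. The identity median lies at 3.27, the capillary median at 2.82 and the adipocyte median at -2.66.

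In VEGF and angiopoietin signalling, receptors and ligands differed. The receptors Flt1, Kdr (443 UMIs), Tek (198) and Tie1 (109), the co-receptors Nrp1 (641) and Nrp2 and the phosphatase Ptprb (560) had ratios from 2.53 to 3.53. Ligands were scarce: Vegfa had 2 UMIs (4.98 against 68.9 CPM), Vegfb 2, Pgf 1, Vegfd 0 and Angpt1 5 (12.5 against 104 CPM). Angpt2, which endothelium makes itself, had 11 UMIs (log2 2.37, 1.16 to 3.41). Of 14 members tested 9 were at least 2-fold higher and 4 lower (2 intervals below 0), the latter near the share over all genes. Of those higher, Flt1, Kdr, Tek, Tie1 and Ptprb are also in the identity list. Against Ad IIb this list was at 7936 against 7624 CPM in sum (log2 0.05, -0.15 to 0.27).

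Of 18 Notch genes tested, 9 were at least 2-fold higher and 3 lower. The endothelial receptor Notch4 had 41 UMIs (log2 3.52), Notch1 105 (1.39), and the ligands Dll4 34 (3.25) and Jag2 21 (2.88). Notch2 was lower at -2.15 (-3.92 to -1.05) and Notch3 at -1.86 (-4.37 to -0.50). Of the target genes, Hes1 had 50 UMIs (2.44) and Nrarp 15 (2.50), while Hey1 had 4 and Heyl 1.

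In the BMP and TGF beta list, 10 of 17 tested members were at least 2-fold higher and 2 lower. The secreted ligand Bmp6 had 705 UMIs in 167 nuclei (1756 against 125 CPM, log2 3.81, 3.65 to 3.97), and Bmp2 and Bmp4 had 1 and 0. The co-receptor Eng had 234 UMIs (3.42), the receptors Bmpr2 132 (2.19) and Acvrl1 29 (2.04), and the targets Id1 64 (2.56) and Smad6 23 (2.47). On the TGF beta side, the receptors Tgfbr3 and Tgfbr2 had 248 and 79 UMIs in 130 and 51 nuclei. Tgfbr1 was at -0.39 (-0.88 to 0.03), Tgfb1 at -0.02 (-0.84 to 0.64) and Smad3, with 3 UMIs, at -3.32 (-5.82 to -1.98). In the Wnt list, 5 of 14 were higher and 5 lower (1 interval below 0). The receptors Fzd4 (86 UMIs, 2.56) and Fzd6 (59, 3.97) and the co-receptor Lrp5 (61, 2.45) were higher, the ligands Wnt2, Wnt5a and Rspo3 had 0 UMIs, and Lef1, a gene of thymocytes, was at 4.98 against 825 CPM.

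Receptors for vasoactive signals were present, and 15 of 20 tested members were at least 2-fold higher and 3 lower (median 2.16, 1 interval below 0). Examples are Adgrf5 (535 UMIs, 3.32), the sphingosine receptor S1pr1 (212, 2.61), the endothelin receptor Ednrb (73, 3.05) and the adrenomedullin receptor Calcrl with its partner Ramp2 (156 and 38). Nitric oxide synthase Nos3 had 41 UMIs (102 against 8.26 CPM), and prostacyclin synthase Ptgis had 0.

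Among factors for thymocytes and leukocyte entry, 9 of 14 tested members were at least 2-fold higher and 1, Vcam1 at 0, lower (0 intervals below 0). Kitl, the ligand of the Kit receptor on early thymocytes, had 603 UMIs in 170 nuclei (1502 against 144 CPM, log2 3.38, 3.22 to 3.55). The chemokine Cxcl12 had 108 UMIs (269 against 37.6 CPM) and the cytokine Il15 48 (119.6 against 18.5 CPM). Il7, a survival cytokine of thymocytes, and Ccl19 had 0 UMIs, with only 8 and 9 in the unlabelled barcodes. Ccl25 was at 27.4 against 28.9 CPM. The junctional molecules Jam2 (210 UMIs, 3.73), F11r (112, 3.14) and Jam3 (32, 3.27) were higher, and the entry receptors Sele, Vcam1 and Madcam1 had 0. Against Ad IIb this list was at 3014 against 2924 CPM in sum (log2 0.04, -0.29 to 0.39).

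Of 22 endothelial transcription factors tested, 18 were at least 2-fold higher and 1 at least 2-fold lower (median 2.19). The latter was Foxc1, at 0 in Ad IIa and 2.61 CPM in the background. Mef2c (323 UMIs, 1.90), Epas1 (271, 2.44), Klf4 (54, 2.76) and Sox7 (27, 2.86) are examples. Ets1 and Foxp1, which thymocytes also make, were at -0.21 and -0.69.

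The matrix genes of Ad IIa were those of the basement membrane. Of 18 tested members 15 were at least 2-fold higher and 1, Col4a5, lower (median 2.40), such as the type IV collagens Col4a1 (317 UMIs, 789.6 against 114 CPM) and Col4a2 (219), perlecan Hspg2 (198), the laminin chain Lama4 (146) and hemicentin Hmcn1 (69, log2 3.24). Interstitial matrix was nearly absent. Col1a1, Col1a2, Col3a1, Col5a2, Fbln1 and Lum had 0 UMIs and Dcn 1, against 74.3 CPM of Col3a1 and 117 of Dcn in unlabelled barcodes. Of 18 such genes 13 were at least 2-fold lower (10 intervals below 0) and 1, Ltbp4, at least 2-fold higher (median -2.65, or -1.33 with genes at 0 held at their limit). Among receptors and remodelling genes 11 of 20 were higher and 5 lower, the latter near the share over all genes. Itga1, part of a receptor for type IV collagen, had 681 UMIs (2.87), Itga6, part of laminin receptors, 342 (2.76), the protease Adamts9 411 (3.58) and the protease inhibitor Timp3 382 (2.83).

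Without regard to lists, the largest ratios over unlabelled barcodes (genes with 50 UMIs and 50 CPM or more on the higher side) were those of Tspan7 (355 UMIs, 884 against 53.4 CPM, log2 4.05), Lnx1 (4.04), Dach1 (1284 UMIs, 4.00), Ccdc85a (1424 UMIs, 3.99) and Fzd6. Efr3b, Cdh13, Samd5, Sema6a, Galnt18, Dysf, Dipk2b, Bmp6, Adgrl2 and Myo1d followed, down to 3.79. The genes furthest on the other side were of leukocytes. Ptprc (CD45) had 1 UMI against 7687 (log2 -8.80, -14.69 to -6.91), and Ikzf3 and Il7r had 0 against 1415 and 768, at least 41.1-fold and 22.3-fold lower.

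RNA of thymocytes, mural cells and fibroblasts was low in Ad IIa. The 15 thymocyte genes all had UMIs, 175 in sum (436 against 10615 CPM), and 14 were at least 2-fold lower. Of 10 mural genes 5 were at 0, Pdgfrb among them, 6 of 8 tested were lower (4 intervals below 0), and 20 of 26 UMIs were Rgs5. Of 10 fibroblast genes 7 were at 0, 9 were lower (8 intervals below 0), and the sum was 7 UMIs. The B cell, macrophage and dendritic lists were carried by 1 gene each, Ebf1 (908 of 909 UMIs), Mertk (95 of 98) and Zbtb46 (205 of 210). Csf1r of the macrophage list and Flt3 of the dendritic list were at 0. In the B cell, macrophage and dendritic lists 6 of 7, 8 of 9 and 3 of 6 members were at least 2-fold lower and 1, 1 and 2 higher. In the dendritic list 0 intervals lay below 0, and its sum, nearly all Zbtb46, was 523 against 83.9 CPM. Thymic epithelial, mesothelial, Schwann and platelet genes had 11, 1, 1 and 1 UMIs in sum, with 0 members at least 2-fold higher. Cycling genes had 4 UMIs, and 5 of 5 were lower. Hemoglobin genes had 208 UMIs in 66 nuclei, 127 of them in 1 nucleus.

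The background held endothelial RNA too. By 5 or more identity genes, a threshold chosen after the data were seen, 308 unlabelled barcodes (1.39%) were rich in endothelial RNA. They held 7.10% of the nuclear-encoded unlabelled UMIs. Of these 308, 274 had at least 20% mitochondrial UMIs (median of all 308 27.6%), while every Ad IIa nucleus was below 20% (4.18 to 19.97%, median 13.3%). Leaving the 308 out raises the ratios of endothelial genes by construction and leaves fewer scarce genes to test. The identity median then became 4.56, the capillary median 3.65 and the arterial median 2.92 in place of 0.94 (10 genes tested in place of 13).

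**Figure D3:**
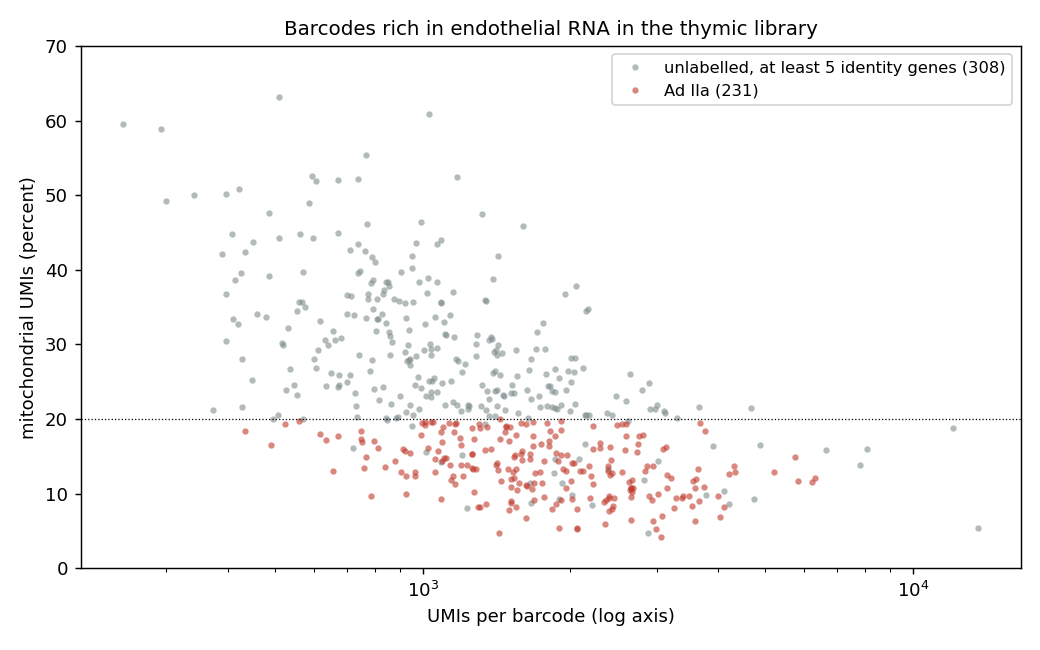
Percent of mitochondrial UMIs against UMIs per barcode (log axis) for the 231 Ad IIa nuclei and the 308 unlabelled barcodes with at least 5 identity genes. The dotted line marks 20%, below which lie all Ad IIa nuclei and 34 of the unlabelled barcodes.

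Beyond the identity genes that chose them, the 308 barcodes had much of the profile of Ad IIa. Over 7388 genes, 5.25% were at least 2-fold higher in Ad IIa and 7.08% at least 2-fold lower. Of 14 capillary genes tested 0 passed 2-fold either way, and of 15 fatty acid transport genes 0. The capillary list holds Kdr, which is also an identity gene. Both lists hold Cd36, Gpihbp1, Meox2, Tcf15 and Rbp7, so these counts are not independent of each other. Fabp4 was at 8860.4 against 9122 CPM (-0.04, -0.11 to 0.03), Gpihbp1 at 453 against 409.9 CPM (0.14, -0.18 to 0.48) and Timp4 at 396 against 346 CPM. Differences lay elsewhere. The sum of the 15 thymocyte genes was lower in Ad IIa (436 against 1817 CPM in sum, log2 -2.06, -2.31 to -1.81), for instance Themis at 47.3 against 343 CPM, and so was the sum of the 17 adipocyte genes (879 against 1594 CPM in sum, log2 -0.86, -1.06 to -0.66). The pericyte gene Rgs5 was at 49.8 against 147 CPM (-1.54, -2.39 to -0.78). Of the arterial genes, Vegfc had 3 against 18 UMIs (-2.70, -5.29 to -1.10), Fbln5 3 against 12 (-2.13, -4.76 to -0.41) and Edn1 0 against 10 (at least 4.09-fold lower). Vegfc, Fbln5 and Edn1 reached the minimum of 10 UMIs only through the 308. Their ratios describe these genes alone and not the arterial list. Ribosomal protein RNA was at 23296 CPM in Ad IIa and 37310 in the 308, and its part in these differences was not tested. Against the 34 barcodes under 20% mitochondrial UMIs, 611 of 6306 genes were at least 2-fold higher in Ad IIa and 665 lower.

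To compare shares of barcodes with a UMI, each was thinned to 500 nuclear-encoded UMIs. This kept 227 Ad IIa nuclei (median 1500 before thinning), 229 of the 308 (949) and 1724 of the other unlabelled barcodes (842.5), which are mainly not endothelial, and left out 4, 79 and 20203. After thinning, 68.7% of Ad IIa nuclei (62.3 to 74.7, Clopper-Pearson, 89.6% unthinned) had a Flt1 UMI and 36.1% a Cdh5 UMI. Both are identity genes, which split the unlabelled barcodes, so they are set beside Ad I (26 nuclei kept, 58 left out, median 731), where the shares were 11.5% and 3.85%. In Ad IIa, the 308 and the others, Cd36 was found in 92.1%, 86.5% and 7.77%, and Fabp4 in 95.6%, 94.8% and 19.2%. Bmp6 was found in 46.3% of Ad IIa nuclei and 0.638% of the others, and Kitl in 43.6% and 1.10%. Neither Bmp6 nor Kitl was among the 15 leading genes on the Ad IIa side against the 308, the last of which was at 0.92. Both had UMIs enough to be ranked, so neither was 2-fold higher in Ad IIa than in the 308. Neither gene is thus particular to Ad IIa beside these barcodes. Adipoq was found in 0.441% of Ad IIa nuclei and 1.28% of the others, so its share in Ad IIa is not above background.

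**Figure D4:**
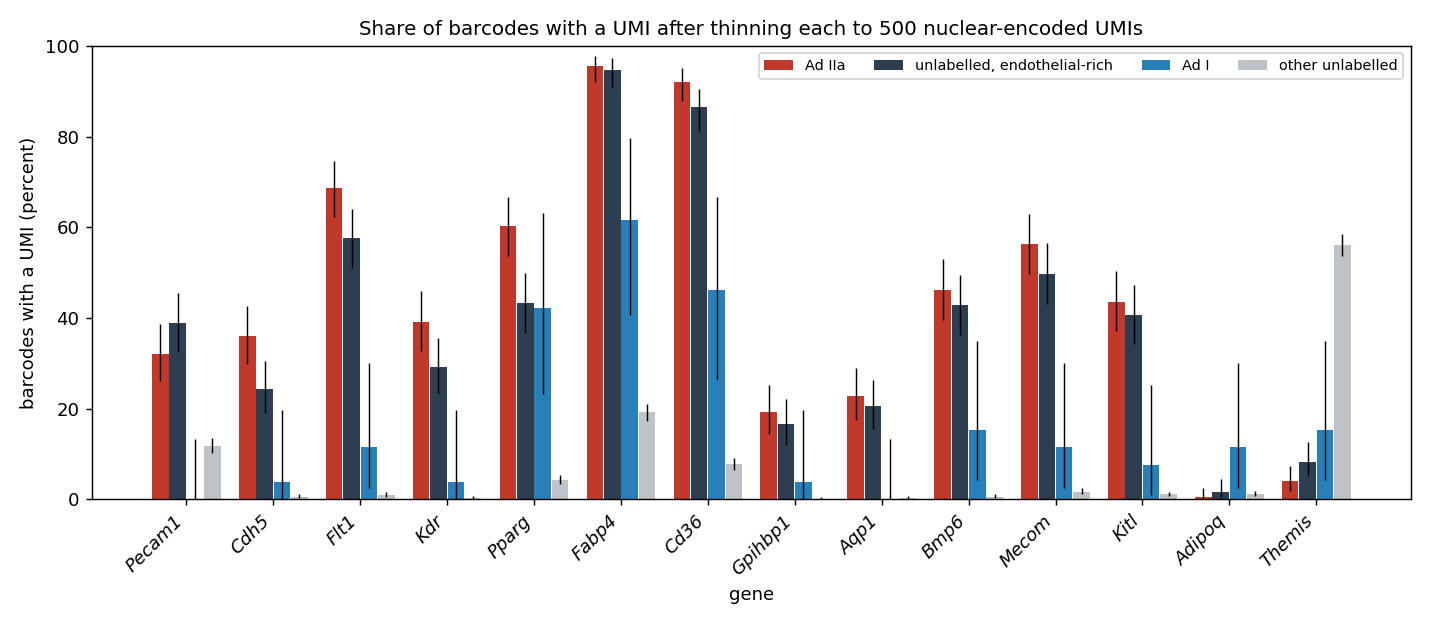
Percent of barcodes with a UMI of each gene after thinning to 500 nuclear-encoded UMIs, with 95% Clopper-Pearson intervals, in Ad IIa (227), unlabelled barcodes rich in endothelial RNA (229), Ad I (26) and other unlabelled barcodes (1724). Identity genes (Pecam1, Cdh5, Flt1, Kdr) split the unlabelled barcodes, so their shares there restate the split. Bmp6 is at 46.3% in Ad IIa and 0.638% in the other unlabelled barcodes, and Themis at 3.96% and 56.1%. By summed UMIs, Bmp6 was not 2-fold higher in Ad IIa than in the unlabelled barcodes rich in endothelial RNA.

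Ad I, the thymic label with most adipocyte RNA, differed from Ad IIa in both directions. Over 6094 genes, 28.2% were at least 2-fold higher in Ad IIa and 20.2% lower, a split of 58.3% higher that became 74.2% with TMM and 51.0% with median-of-ratios scaling. Among nuclei with at least 1000 UMIs, 21.8% were higher and 23.1% lower. All 22 identity genes were at least 2-fold higher in Ad IIa, with 21 intervals above 0. Their median was 3.01 against 0.08 for all genes (2.47 and -0.03 with genes at 0 held at their limit). They met the minimum of 10 UMIs largely through Ad IIa, with 7945 UMIs in sum against 123 in Ad I, where 6 were at 0. Eng had 234 UMIs against 0 in Ad I, at least 10.2-fold higher, and Efnb2 155 against 0, at least 6.72-fold. The fatty acid genes divided, 8 of 16 higher and 6 lower. Cd36 was at 6125 against 1895 CPM (log2 1.69) and Fabp4 at 8860.4 against 2833 CPM (1.64, 1.41 to 1.89). Pparg differed less, at 2371 against 1417 CPM (0.73, 0.40 to 1.10). On the Ad I side, Lpl was at 917 against 2622 CPM (-1.52, -1.80 to -1.22) and Acsl1 at 67.3 against 1972 CPM (-4.85, -5.54 to -4.25), and Slc27a1 had 0 against 25 UMIs, at least 64.0-fold lower in Ad IIa.

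The ligands scarce in Ad IIa were present in Ad I, with 17 UMIs of Vegfa (325 CPM) and 16 of Angpt1 (306 CPM). The 17 adipocyte genes were at 879 against 9992 CPM in sum, log2 -3.51, -3.71 to -3.31, and Plin1 had 4 against 46 UMIs (-6.31, -8.40 to -5.01). The genes furthest on the Ad I side were Slc24a3, Arhgap24, Sgcd, Acss3 and Ppara, the last with 7 against 89 UMIs. The 15 thymocyte genes were also lower in Ad IIa, at 436 against 1359 CPM in sum (log2 -1.65, -2.05 to -1.22). Ad I was shallower (median 500.5 UMIs), and Malat1, a nuclear RNA, was at 58154 CPM there against 17429 in Ad IIa. Without Malat1, Gm42418 and AY036118 in the totals all ratios moved by -0.12, and 26.5% of genes were higher and 22.5% lower. Among nuclei with at least 1000 UMIs, the ratio of Flt1 was 1.25 in place of 2.47 and of Pecam1 1.37 in place of 2.44. That of Cdh5 was 4.95 in place of 3.23, but this rise has no size. Most Ad I nuclei are below that depth, and Cdh5 is so scarce in Ad I that its ratio depends on the added count. Over all nuclei the ratio of Cdh5 was 2.25 with a pseudocount of 5.

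Ad IIb held endothelial identity genes as Ad IIa did, and some vessel bed genes differed. Over 5713 genes, 17.2% were at least 2-fold higher in Ad IIa and 20.4% lower, many on a few UMIs, since Ad IIb has 16 nuclei. Among the 1729 genes with at least 50 UMIs the shares were 13.9% and 7.52%. The split was 45.6% higher, and 75.8% with TMM or 59.9% with median-of-ratios scaling. The identity median was 0.03 (-0.39 with a pseudocount of 5, 0.51 with TMM scaling). Cdh5 (805 against 851 CPM), Flt1 (2601 against 2849.7 CPM) and Cd36 (6125 against 5811 CPM) had intervals that hold 0. Of 22 identity genes 2 were at least 2-fold higher in Ad IIa and 0 lower, with 3 intervals above 0 and 1 below. The receptor Kdr was at 1104 against 481 CPM (1.14, 0.41 to 2.12). The 16 capillary genes were at 11159.6 against 9771 CPM in sum, log2 0.19, 0.01 to 0.38, of which Cd36 gave 2459 of 4480 UMIs in Ad IIa. Of 14 members tested, 4 intervals lay above 0 and 2 below. Car4 had 135 UMIs against 0 (at least 3.03-fold higher) and Timp4 159 against 1 (2.84, 0.92 to 8.73). Gpihbp1, Cd300lg and Meox2 had intervals that hold 0, and Btnl9 was at 779.7 against 1332 CPM (-0.79, -1.27 to -0.23). In other lists, Aqp1 had 245 against 0 (at least 5.50-fold higher), Bmp6 705 against 3 (log2 3.76, 2.43 to 6.26) and Adamts9 411 against 2 (3.47, 1.93 to 6.84). Aqp1, Car4, Timp4, Bmp6 and Adamts9 reached the UMI minimum for a ratio through Ad IIa alone. Aqp1, Car4, Bmp6 and Adamts9 were leading genes, which needed at least 50 UMIs on the Ad IIa side. The ratios of such genes describe these genes alone and not their lists. Slc6a6 went the other way, with 148 against 39 UMIs (-1.98, -2.49 to -1.42). Of 11 solute and water carriers tested, 2 were at least 2-fold higher in Ad IIa and 4 lower (1 interval above 0 and 3 below).

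In sum, arterial genes were higher in Ad IIb. The 16 arterial genes were at 2877 against 6218 CPM in sum, log2 -1.12, -1.35 to -0.87. Mecom gave 873 of their 1155 UMIs in Ad IIa and 97 of 168 in Ad IIb. Of the 3 arterial genes with at least 50 UMIs, 1 was at least 2-fold lower in Ad IIa. Genes scarce in Ad IIa, such as Fbln5, Vegfc, Tgfb2 and Lama3, reached the minimum of 10 UMIs only through Ad IIb. No count over the list is therefore given, and the ratios of such genes describe these genes alone. Fbln5, an elastic fibre protein, had 3 UMIs in 231 nuclei of Ad IIa and 10 in 16 of Ad IIb (-5.48, -8.13 to -3.67). Vegfc, a ligand of Flt4, had 3 against 9 (-5.33, -8.00 to -3.48), Sema3g 24 against 9 (-2.53, -3.63 to -1.19), Sox17 43 against 9 (-1.70, -2.69 to -0.41) and Mecom 873 against 97 (-0.73, -1.03 to -0.41). TMM scaling moved all ratios against Ad IIb by 0.47, after which the intervals of Sox17 and Mecom hold 0. Bmx and Edn1 had 0 against 3 each and Gja5 0 against 2. The 18 interstitial and elastic matrix genes had 70 UMIs in Ad IIa and 30 in Ad IIb (174 against 1110.3 CPM in sum). Col8a1 had 25 against 50 UMIs (-4.88, -5.65 to -4.17), Tgfb2 2 against 9 (-5.82, -9.31 to -3.79), Lama3 8 against 10 (-4.20, -5.76 to -2.72) and the retinol carrier Rbp7 38 against 13 (-2.38, -3.29 to -1.31). Vegfc, Tgfb2 and Lama3 were named after their values were seen.

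A group of 11 such genes, also chosen after their values were seen, is described here, and the choice makes this no check of the pattern. The group had 115 UMIs in Ad IIb (50 of them Col8a1), and the nucleus with most held 17 UMIs. That nucleus held 0 of the 10 Fbln5 UMIs. Without it the Fbln5 ratio of -5.59 differs through the Ad IIb total alone and is no check. The ratio of Sema3g (8 UMIs left) was then -2.48 and of Col8a1 (39 left) -4.63. That of Sox17 (7 left) was -1.47 with an interval that holds 0 (-2.55 to 0.01).

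**Figure D5:**
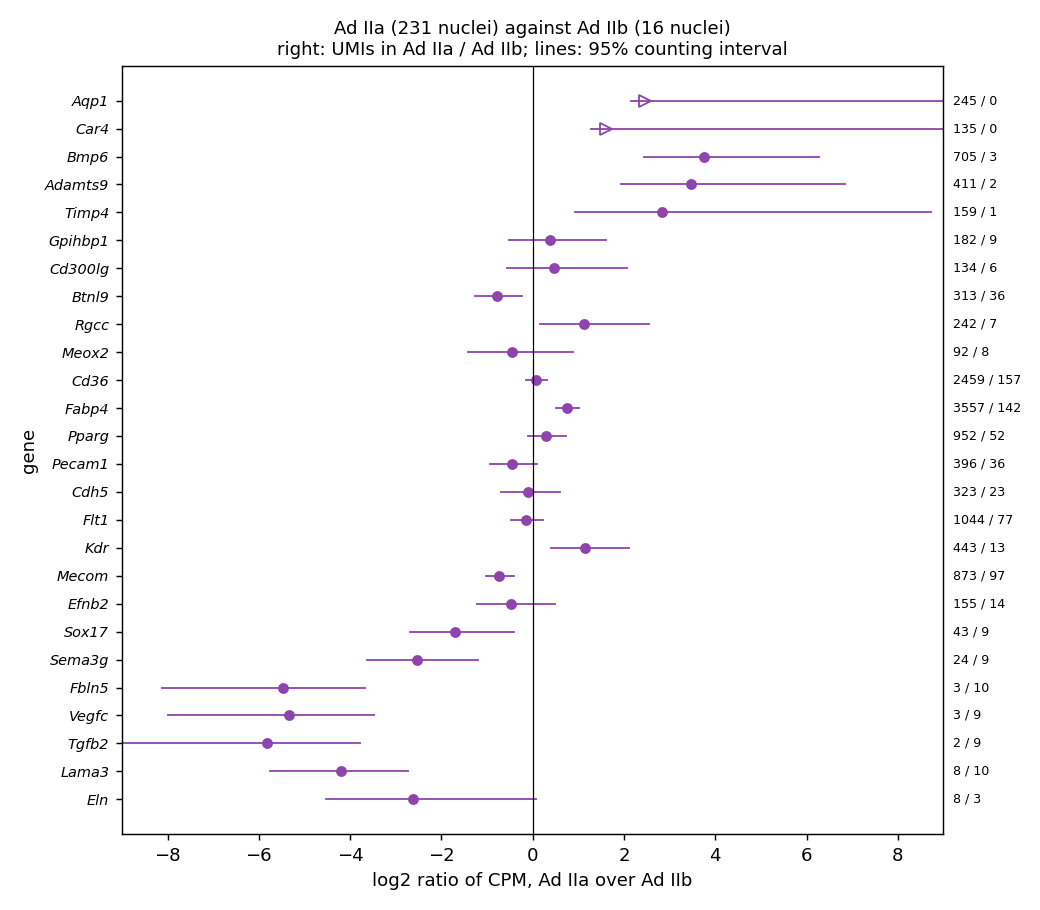
Log2 ratio of Ad IIa over Ad IIb by gene, with 95% counting intervals and the UMIs behind each on the right. Open triangles mark genes with 0 UMIs on a side, drawn at the limit of 3 counts. Aqp1, Car4, Bmp6, Adamts9 and Timp4 lie on the Ad IIa side, and Fbln5, Vegfc, Sema3g and Sox17 on the Ad IIb side. The genes named on the Ad IIa side reached the UMI minimum for a ratio through Ad IIa alone, and Fbln5 and Vegfc only through Ad IIb.

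Ad IIc carried the vascular genes of Ad IIa as well, and hemoglobin RNA. Over 5890 genes, 15.0% were at least 2-fold higher in Ad IIa and 14.2% lower (9.70% and 5.59% of the 1824 genes with at least 50 UMIs). The split was 51.4% higher, and 70.2% with TMM scaling. Of 22 identity, 14 capillary, 13 fatty acid transport and 13 basement membrane genes tested, 0 passed 2-fold in either direction. Other lists had members past 2-fold, and the counts of only some of them are given here. Of arterial genes 2 of 6 were higher and 0 lower (2877 against 1714 CPM in sum, log2 0.74, 0.44 to 1.07), of Wnt genes 2 of 7 and 0, of Notch genes 2 of 11 and 1, and of endothelial transcription factors 1 of 18 and 2. Pecam1 was at 986 against 903 CPM (0.11, -0.30 to 0.59) and Car4 at 336 against 350.1 CPM (-0.09, -0.76 to 0.72). Fabp4 was higher in Ad IIc, at 8860.4 against 16309.5 CPM (-0.88, -0.99 to -0.77), while the interval of Gpihbp1 holds 0 (-0.16, -0.72 to 0.51). Mecom (0.72, 0.38 to 1.10) and Bmp6 (0.78, 0.40 to 1.22) were higher in Ad IIa. All 4 hemoglobin genes tested were lower in Ad IIa (median -5.83), and after them the leading Ad IIc genes included Ly6c1, Eef1a1 and Tpt1 (-1.25 to -1.03). Ribosomal protein RNA was at 23296 CPM in Ad IIa and 50919 in Ad IIc, and its part in these differences was not tested.

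Among the 231 nuclei themselves, the list genes with the highest variance over that of Poisson counts were hemoglobin genes and Fabp4. The variance over that of Poisson counts at each nucleus's depth had a median of 1.28 over 1613 genes with at least 50 UMIs (quartiles 1.13 and 1.52), and 1.39 over the 111 list genes among them. At few UMIs per nucleus a value near 1 does not show that nuclei were alike. The value also tends to rise with the UMIs of a gene, so it does not rank genes of unlike UMIs by spread. Of these list genes Hba-a2 stood highest at 35.4, with 52 of its 77 UMIs in 1 nucleus. Fabp4 followed the hemoglobin genes at 5.27, with up to 80 UMIs in a nucleus. Of the genes on the Ad IIa side against Ad IIb, Aqp1 was at 4.25 (245 UMIs, 90 nuclei with a UMI), Adamts9 at 3.81 (411, 135) and Bmp6 at 3.57 (705, 167). The less abundant Timp4 was at 1.62 (159, 98) and Car4 at 1.08 (135, 92). Mecom was at 3.66 (189). Outside the lists, Hdac9 stood at 8.96, with 123 UMIs in 32 nuclei, and was named after its value was seen.

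The authors' cluster numbers, made over both 4-month libraries together, put 211 of the 231 nuclei in 1 cluster and 16 in another. How these clusters relate to the labels is not stated. The 16 were deeper (median 2374.5 against 1677 UMIs), with Fabp4 at 5214 against 9333 CPM, Timp4 at 116 against 433 CPM (4 and 155 UMIs) and ribosomal protein RNA at 11616 against 24445 CPM. Pecam1 (1188 and 972 CPM) and Cd36 (6257 and 6179 CPM) were closer. The other 4 nuclei lay in 3 clusters, and 1 of them, with 1301 UMIs, had 0 UMIs of Pecam1, Cdh5, Flt1, Pparg and Cd36.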

How the data were processed

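Single-nucleus RNA of 1 thymic library was analysed. The authors deposited UMI counts by gene for each barcode and, per the file headers, made them with cellranger 7.2.0. They also deposited a nucleus table with UMI count, percent of mitochondrial UMIs, doublet class and label. Per the submitters' processing notes, Seurat 5.1.0 and the mm10 build were used; whether intron reads were counted was not stated there. Matrix sums exceeded the deposited UMI count of a nucleus by at most 33. UMIs were summed per label (the library holds 10054839 over 22600 barcodes), 40 repeated symbols were merged, and mitochondrial genes were left out of totals. Genes needed 10 UMIs over both sides for a ratio, and the limit for counting was 2-fold. With 1 library there is no test. Ratio intervals are exact binomial splits, single sums have Poisson and shares Clopper-Pearson intervals, all at 95%. A count of 0 was limited at 3 counts over the group. Thinning used 1 random draw.

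The members, lists and alternatives were chosen with earlier results of these data known. Genes were named as follows: the 5 given markers; in each list up to 8 members with most UMIs, the 3 highest and 3 lowest ratios over the unlabelled barcodes, and members at 0 UMIs; and in each comparison the 15 and 10 leading genes with at least 50 UMIs and 50 CPM, without mitochondrial, ribosomal protein and predicted genes. Not all of these are printed. Some list members outside this rule, and the genes so marked, were named after their values were seen. Overlapping and antisense genes cannot be told apart where counting used no strand. Alternatives were TMM (edgeR 4.0.16, R 4.3.3) and median-of-ratios scaling, totals without 3 abundant RNAs, equal weight per nucleus, depth minimums, subtraction of free RNA, other pseudocounts, minimums and fold limits. Scripts were tested on simulated data with Python 3.11.15, numpy 2.4.6, pandas 2.3.3 and scipy 1.17.1. The epigonadal counts, the chromatin data and the 6-month library were not used here, and some genes that the rule names are not reported here.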

Additional observations from a re-analysis of the deposited data

How the results depend on the processing

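No paired analysis was possible because every group is part of 1 library and the replicate number is 1 throughout. Of 185 marker gene ratios under alternatives that can change a ratio, 141 stayed within their counting interval and 44 moved out of it. A change of sign was looked for only where the reported ratio was at least 2-fold, and 0 were found. Counts over all genes depended on the settings. As reported, genes at least 2-fold higher and lower in Ad IIa numbered 2204 and 3838 against unlabelled barcodes, 1721 and 1232 against Ad I, 980 and 1167 against Ad IIb, and 886 and 837 against Ad IIc. With a pseudocount of 5, which by its construction lifts the side with fewer UMIs, they were 5300 and 855, 299 and 3201, 18 and 4357, and 15 and 3009. With a minimum of 50 UMIs, under which fewer genes are tested, they were 1342 and 2110, 669 and 175, 241 and 130, and 177 and 102. With a 4-fold limit they were 996 and 1763, 759 and 447, 191 and 222, and 242 and 79. A 1.5-fold limit gave 3330 higher against unlabelled barcodes, 1643 and 1971 against Ad IIb, and 1475 and 1520 against Ad IIc. With no minimum, 7840 were higher against unlabelled barcodes, and 5401, 5913 and 4513 lower against Ad I, Ad IIb and Ad IIc. TMM scaling gave 777 lower against Ad I, 1703 higher and 543 lower against Ad IIb, and 498 lower against Ad IIc, and the cause was not tested. It moved all ratios by -0.09 against unlabelled barcodes and by 0.41, 0.47 and 0.24 against Ad I, Ad IIb and Ad IIc, and median-of-ratios scaling by -0.17, -0.21, 0.21 and -0.06. Unlabelled barcodes under 300 UMIs alone gave 2787 higher and 1986 lower of 9103 tested, so the split turned. Against endothelial-rich unlabelled barcodes, 388 were higher and 523 lower, with 855 lower where they were chosen by 3 identity genes and 611 higher where they had under 20% mitochondrial UMIs. Both of these alternatives and the one without the 308 barcodes were chosen after seeing the data. The percent of Ad IIa nuclei with a UMI of Pecam1, Cdh5, Flt1, Pparg and Fabp4 was 63.2, 49.5, 92.3, 73.6 and 98.9 with thinning to 1000 UMIs, which keeps 182 nuclei, and 71.4, 68.4, 89.6, 83.5 and 98.7 with no thinning. The small total of Ad IIb (27020 nuclear-encoded UMIs in 16 nuclei) limits its values most, and 0 UMIs there allow up to 111 CPM.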
